A study of Mus musculus with 6 samples.

Results

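MiR-21a is read on the array as 2 mature miRNAs cut from one hairpin, mmu-miR-21a-5p and mmu-miR-21a-3p, and these were taken by name from the 1881 mouse miRNAs of the array. They were compared between type H endothelial cells (ECs), sorted from bone marrow as CD31hiEmcnhi cells, and type L ECs, sorted as CD31loEmcnlo cells, with 3 one-colour Agilent arrays of each. All samples came from untreated wild type C57BL/6 mice aged 1 month. The sample labels give the mice as male and the methods give them as female. By the labels, the sorted cells were grown on fibronectin in an endothelial growth medium before RNA was extracted, while the text on the arrays mentions only the sort from marrow, and whether the values describe cultured or freshly sorted cells is not settled by the files. The labels call the arrays of a cell type biological replicates but do not say whether each came from its own animal, and the p-values measure the spread between these samples only.

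A hairpin RNA is trimmed to a short duplex, and usually one strand, here the 5p arm, is loaded into the silencing complex while the other is degraded. The loaded strand finds its targets mainly through the seed, the bases at its positions 2 to 8. MiR-21 is known as a repressor of Pdcd4, Reck and the Sprouty genes, and in vessels, heart and kidney it has been studied for its roles in endothelial growth, hypoxia and fibrosis. It is among the most abundant miRNAs of many cultured cells, fibroblasts and endothelial cells included.

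Both mature sequences matched RefSeq by name, and they are shown with the seed in capitals.
miR-21a-5p: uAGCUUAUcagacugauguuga
miR-21a-3p: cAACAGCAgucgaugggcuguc
In RefSeq's GRCm38.p6 both lie on the minus strand of chromosome 11, miR-21a-5p at chr11:86584120-86584141 and miR-21a-3p at chr11:86584082-86584103. The Mir21a gene, chr11:86584067-86584158, falls within the span of the protein-coding gene Vmp1, chr11:86583858-86683836. The table used here does not say whether that place is an exon or an intron of Vmp1.

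The array reads each strand from its 3′ end with a nested set of probes, 2 for miR-21a-5p and 4 for miR-21a-3p, out of 4415 probes for all mouse miRNAs. The longest of each set and the shortest are shown, with the bases by which the longer one reaches further towards the 5′ end of the miRNA in capitals.
miR-21a-5p, 19 bases: tcaacatcagtctgataag
miR-21a-5p, 20 bases: tcaacatcagtctgataagC
miR-21a-3p, 12 bases: gacagcccatcg
miR-21a-3p, 15 bases: gacagcccatcgACT
The 20-base probe is complementary to bases 3 to 22 of miR-21a-5p and the 19-base probe to bases 4 to 22. The 15-base probe of miR-21a-3p pairs with bases 8 to 22 and the 12-base probe with bases 11 to 22, so no 3p probe covers the whole seed. The array's own annotation, on mm9, places the 20-base probe at chr11:86397588-86397607 and the 15-base probe at chr11:86397631-86397645. That order of the arms is the reverse of RefSeq's, and which holds was not settled.

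Facts of the whole series bear on every value below. A type H array had 263 to 281 detected miRNAs and a type L array 295 to 309. One slide carried every type H array and a second slide, scanned apart from it, every type L array, and the cell type and the slide therefore cannot be told apart. The 10 control features detected on all 6 arrays, which do not come from the cells, were all brighter on the type H arrays, by 0.22 to 1.46 on the log2 scale with a median of 0.61. Neither of the 2 endothelial markers, the arms of miR-126a, was detected on any array, nor were any of the 6 haematopoietic markers. Of 7 stromal markers, 6 were detected on all 6 arrays and all 7 on at least one. The summed signal of the stromal list was 898 to 1137 on the type H arrays and 769 to 879 on the type L arrays, and the part of these cells in the results was not tested. In bulk samples, fewer cells of a type and less RNA per cell cannot be told apart.

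The signal given here for a miRNA is the sum of the totals of its probes, in background-subtracted array units on a linear scale, before any scaling between arrays. MiR-21a-5p was brighter on the type H arrays. Its signal was 2617, 2076 and 2137 on type H arrays 1 to 3, and 1616, 1778 and 1879 on type L arrays 1 to 3. Each type H array was above each type L array, although type H array 2 exceeded type L array 3 by little. The means were 2277 ± 296 (SD, n = 3) and 1758 ± 133 (SD, n = 3), a ratio of 1.30. By an exact permutation test, two-sided, p was 0.10, and no smaller value is possible with 3 arrays a group. Of the 311 miRNAs tested, 31.8% were likewise higher on all type H arrays without overlap before scaling.

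MiR-21a-3p, read with shorter probes, was much dimmer, and its degradation was not measured. Its signal was 6.94, 4.95 and 5.13 on type H arrays 1 to 3, and 5.93, 7.57 and 8.20 on type L arrays 1 to 3. The groups overlapped, since type H array 1 was above type L array 1, and otherwise the type L arrays were higher. The means were 5.67 ± 1.10 (SD, n = 3) and 7.23 ± 1.17 (SD, n = 3), with an exact two-sided permutation p of 0.20. It was flagged as detected by the scanner software on all 6 arrays, where the lowest signal of any detected miRNA lay between 0.69 and 1.92.

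**Figure D1:**
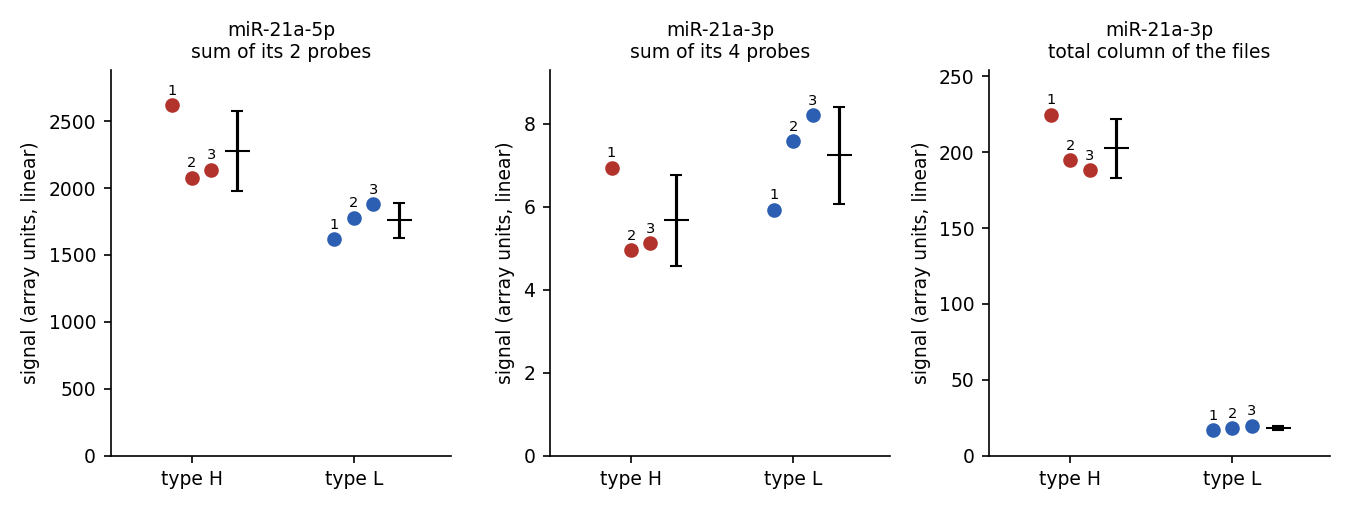
Signal of miR-21a-5p (left), of miR-21a-3p as the sum of its probes (middle) and of miR-21a-3p as listed in the files' column of totals (right), on linear axes in array units. Points are the 3 arrays of each cell type, numbered by replicate, and bars are the mean ± SD; the middle panel runs from 4.95 to 8.20, while in the right panel the type H arrays sit between 188 and 225 and the type L arrays between 16.6 and 19.7.

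Probes differ in brightness for equal amounts of RNA, so ranks and ratios between miRNAs compare signals, and only their change between the cell types is read here. MiR-21a-5p was the third brightest detected miRNA on each of the 6 arrays, behind miR-6366 and miR-3963. It carried 3.29, 2.95 and 3.25% of the summed signal of detected miRNAs on type H arrays 1 to 3, and 2.09, 2.24 and 2.35% on type L arrays 1 to 3. The means of the shares differed by a factor of 1.42, with an exact permutation p of 0.10. How many other miRNAs gained share on the type H arrays was not counted. With miR-6366 left out of the sum the mean share of miR-21a-5p was 7.06% ± 0.29 (SD, n = 3) for type H and 5.47% ± 0.23 (SD, n = 3) for type L. MiR-21a-3p took rank 195, 219 and 206 on type H arrays 1 to 3 and rank 234, 206 and 197 on type L arrays 1 to 3. These ranks overlapped, and miR-21a-3p made up 0.0070 to 0.0087% of the summed signal on type H arrays and 0.0077 to 0.0103% on type L arrays.

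The neighbours of miR-21a-5p in rank were not the same in the cell types. On the type H arrays the next miRNA down was let-7b-5p, a member of the let-7 family, at 1617, 1353 and 1234. On the type L arrays it was miR-5100, at 1560, 1599 and 1647, and there miR-21a-5p led it by only 0.13 ± 0.072 (SD, n = 3) on the log2 scale. On the type H arrays miR-21a-5p led miR-5100 by 0.83 ± 0.14 (SD, n = 3). Ratios within an array are not changed by a scale factor per array, although quantile normalization does change them, and 4 were compared before any scaling, chosen after the ranks were seen. Against miR-6366, miR-5100 and miR-3963 the log2 ratio of miR-21a-5p was higher in type H ECs by 0.61, 0.70 and 0.35 (exact permutation p = 0.10, 0.13 after Benjamini-Hochberg adjustment over the 4). Against let-7b-5p it was 0.70 ± 0.087 (SD, n = 3) for type H and 0.67 ± 0.020 (SD, n = 3) for type L. That difference of 0.033 was within the spread between arrays (exact permutation p = 0.70, adjusted p = 0.70). MiR-6366 and miR-5100 were themselves dimmer on the type H arrays, at means of 39642 and 1272 against 46770 and 1602 on type L. MiR-3963 was at means of 7544 for type H and 7431 for type L. How many other miRNAs rose against these partners was not counted.

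**Figure D2:**
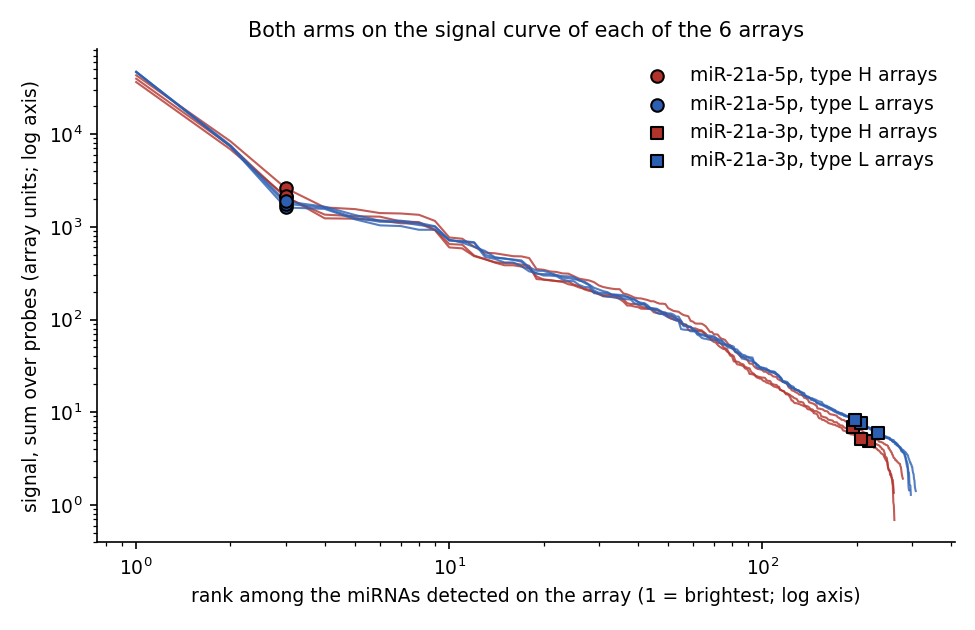
Signal of each detected miRNA (sum of its probes, log axis, array units) against its rank on the array (log axis, 1 is the brightest), with one line per array, red for type H and blue for type L. Circles mark miR-21a-5p, at rank 3 on each of the 6 lines with a signal of 1616 to 2617, and squares mark miR-21a-3p, at ranks 195 to 234 with a signal of 4.95 to 8.20.

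Quantile normalization, the method of the study, gives the miRNA at a given rank the same value on every array. As miR-21a-5p held the same rank throughout, its normalized log2 signal was 10.98 on all 6 arrays, and the log2 difference between the cell types was 0 by construction. The log2 table deposited by the authors likewise lists it at 10.96 on all 6 arrays. Limma's adjusted p of 1 for miR-21a-5p is a property of this scaling and carries no information on its amount. For miR-21a-3p the normalized log2 signals were 2.87, 2.56 and 2.72 on type H arrays 1 to 3 and 2.38, 2.72 and 2.84 on type L arrays 1 to 3. They overlapped, and the log2 difference, type H minus type L, was 0.07 (95% interval -0.29 to 0.43, limma adjusted p = 0.67). In this comparison 86.8% of the 311 miRNAs tested were past an adjusted p of 0.05, 44.7% higher and 42.1% lower in type H ECs. With each array scaled on its 75th percentile, taken over miRNAs found on every array, the calls split into 31.5% higher and 56.6% lower.

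Under the scalings run here that keep distances between ranks, miR-21a-5p was higher in type H ECs. Without normalization its log2 difference was 0.37 (95% interval 0.10 to 0.64, limma adjusted p = 0.012), where 30.5% of miRNAs were past the threshold and higher in type H ECs. Limma gave both arms the same standard error there, 0.14, from a spread pooled over the miRNAs tested. That p-value therefore does not measure the spread of miR-21a-5p alone. After 75th percentile scaling the log2 difference was 0.27 (95% interval 0.13 to 0.40, limma adjusted p = 0.0029). Centring each array on the median of the miRNAs detected on all 6 arrays gave 0.61 (limma adjusted p = 1.7e-05), with 43.4% called higher. Normexp background correction followed by quantile normalization gave -0.05 (limma adjusted p = 0.22). Without normalization the call depended on type L array 1, and leaving it out gave 0.31 (limma adjusted p = 0.087). These scalings also move all miRNAs, and the median over the 231 miRNAs detected on all 6 arrays was -0.12 without normalization and -0.22 after 75th percentile scaling. Relative to that median miR-21a-5p was higher by 0.48 under both, a distance that a scale factor per array cannot change. Of the 231 miRNAs, 60 had a larger difference. The 10 control features were higher on the type H arrays by a median of 0.61 before scaling, above the 0.37 of miR-21a-5p. Scaling on the controls was not tested.

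The direction of miR-21a-3p changed with the scaling. Without normalization limma gave a log2 difference of -0.35 (95% interval -0.63 to -0.08, adjusted p = 0.015), where 45.3% of miRNAs were called lower. The standard error there, 0.14, was the pooled one, the same as for miR-21a-5p. The log2 values of miR-21a-3p itself overlapped, with SDs of 0.27 for type H and 0.24 for type L (n = 3). Their exact permutation p was 0.20. After 75th percentile scaling the difference was -0.46 (limma adjusted p = 0.0024). Median centring gave -0.11 (limma adjusted p = 0.35), and 0.23 was found from the log2 values the authors deposited (limma adjusted p = 0.17). Without normalization, counting only probes above 3 times their error gave -0.26 (limma adjusted p = 0.13). Relative to the median of the 231 miRNAs it was at -0.24 without normalization and at -0.04 after quantile normalization.

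**Figure D3:**
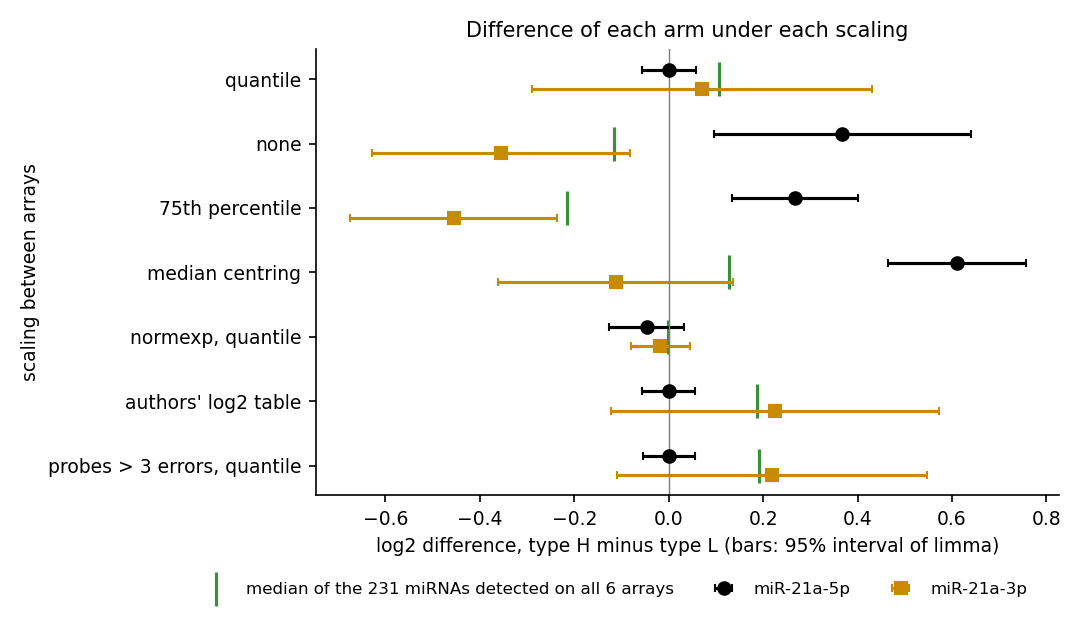
Log2 difference, type H minus type L, of miR-21a-5p (circles) and miR-21a-3p (squares) with limma's 95% interval, for each scaling between arrays, with the median of the 231 miRNAs detected on all 6 arrays as a green tick. MiR-21a-5p lies at 0 under quantile normalization and between 0.27 and 0.61 without normalization or with the percentile or median scaling, and miR-21a-3p lies on both sides of 0.

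The files also hold a ready column with a total per miRNA, which for miR-21a-3p gave another picture. That column listed 224.8, 194.6 and 188.1 on type H arrays 1 to 3 and 16.6, 18.2 and 19.7 on type L arrays 1 to 3, well apart and 11.1 times higher in the mean of type H ECs. After quantile normalization its log2 difference was 3.63 (limma adjusted p = 5.7e-06), or 12.4-fold, and with this column 35.4% of miRNAs were called higher. Most of that total was not signal of the 3p probes. On the type H arrays the probes of miR-21a-3p above 3 times their error made up only 2.97, 2.61 and 3.03% of it, and on the type L arrays 36.1, 39.1 and 39.8%.

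The rest could be followed through the files. On each array the excess matched the total listed for miR-218-5p, the detected miRNA just before miR-21a-3p in name order, which was 218.1, 189.5 and 182.4 on type H arrays 1 to 3 and 10.6, 11.1 and 11.9 on type L arrays 1 to 3. On the type L arrays this was the signal of miR-218-5p itself. On the type H arrays the probes of miR-218-5p gave only 3.90, 3.05 and 3.10, and the remainder matched in turn the total of miR-214-5p and, behind it, that of miR-214-3p, at 212.3, 185.2 and 177.9. MiR-214-3p, a miRNA of the fibrosis-linked list below, is therefore the main content of the type H totals listed for miR-21a-3p. How the totals came to be added was not tested. For miR-21a-5p the listed totals equalled the sum of its probes on all 6 arrays.

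The balance between the arms is likewise a ratio within an array. The log2 ratio of miR-21a-5p to miR-21a-3p was 8.56, 8.71 and 8.70 on type H arrays 1 to 3 and 8.09, 7.87 and 7.84 on type L arrays 1 to 3. The type H arrays were all higher, by 0.72 in the mean (exact two-sided permutation p = 0.10), as were 55% of the 20 hairpins with both arms detected on all 6 arrays. Across these hairpins limma gave miR-21a a standard error of 0.08 and an adjusted p of 0.00018. A shift was common there, with 80% of the hairpins past the threshold, and 50% past it and higher in type H ECs. MiR-21a had the sixth highest change of the 20, between miR-99b at 0.74 and miR-140 at 0.64, while miR-149 was the highest at 1.30 and miR-466i the lowest at -1.51. After quantile normalization, where the 5p value is fixed by its rank, the difference was -0.07 (exact permutation p = 0.70) and from the log2 values the authors deposited it was -0.23.

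**Figure D4:**
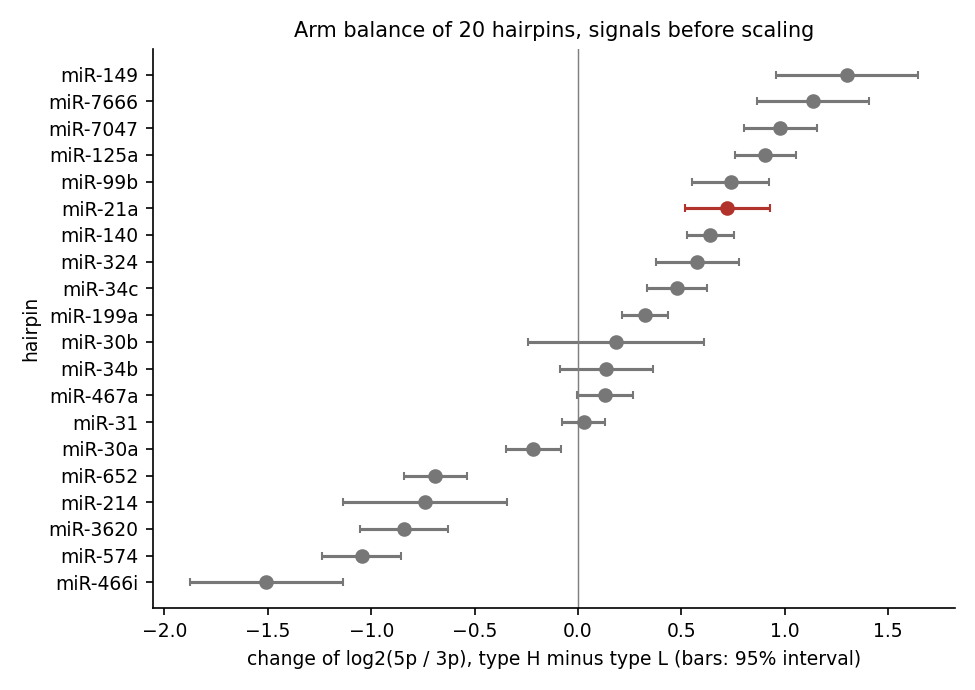
Change of the log2 ratio of the 5p arm to the 3p arm, type H minus type L, for the 20 hairpins with both arms detected on all 6 arrays, from signals before scaling, with limma's 95% interval. MiR-21a (red) lies at 0.72, within a range from -1.51 to 1.30.

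The probes of each arm were then compared. Of the 2 probes of miR-21a-5p, the 20-base probe read 2245, 1789 and 1832 on type H arrays 1 to 3 and 1372, 1511 and 1588 on type L arrays 1 to 3, with no overlap. The 19-base probe, one base shorter, read 372.5, 287.4 and 304.3 on type H arrays 1 to 3 and 244.2, 266.8 and 291.0 on type L arrays 1 to 3, where type L array 3 was above type H array 2. All 15 spots of each were well above background on every array and none was saturated, and the spots of one probe varied by 1.1 to 5.1% (coefficient of variation). Without normalization the log2 difference was 0.39 for the 20-base probe (limma adjusted p = 0.035) and 0.26 for the 19-base probe (adjusted p = 0.14), where 21.1% of the 705 probes tested were past the threshold and higher in type H ECs.

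The ratio of the 20-base to the 19-base probe also separated the arrays. It was 6.03, 6.22 and 6.02 on type H arrays 1 to 3 and 5.62, 5.66 and 5.46 on type L arrays 1 to 3. The gap between the probes was thus larger on the type H slide, by 0.13 on the log2 scale (exact two-sided permutation p = 0.10). Among 169 miRNAs with at least 2 probes above 3 times their error on every array, 47.9% showed a ratio of the longest to the next probe that was higher on all type H arrays without overlap, with a median difference of 0.08. The difference seen for miR-21a-5p therefore depends in part on the probe, as it did for many miRNAs of the array.

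For miR-21a-3p the signal came from the 14-base and 15-base probes. The 15-base probe read 4.06, 2.98 and 3.48 on type H arrays 1 to 3 and 3.70, 4.49 and 4.49 on type L arrays 1 to 3. The 14-base probe read 2.62, 2.10 and 2.21 on type H arrays 1 to 3 and 2.31, 2.64 and 3.34 on type L arrays 1 to 3. Both overlapped between the cell types, and both had lower means in type H ECs, by 0.27 and 0.24 on the log2 scale without normalization (limma adjusted p = 0.17 and 0.28). The sign depended on the scaling. After quantile normalization the 15-base and 14-base probes were at 0.085 and 0.17 (limma adjusted p = 0.58 and 0.39). After 75th percentile scaling they were at -0.38 and -0.35 (limma adjusted p = 0.020 and 0.055). The ratio of the 15-base to the 14-base probe was 1.51 ± 0.086 (SD, n = 3) for type H and 1.55 ± 0.18 (SD, n = 3) for type L and did not separate them. The 12-base and 13-base probes stayed below 3 times their error on all 6 arrays, with readings from -0.58 to 0.39.

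**Figure D5:**
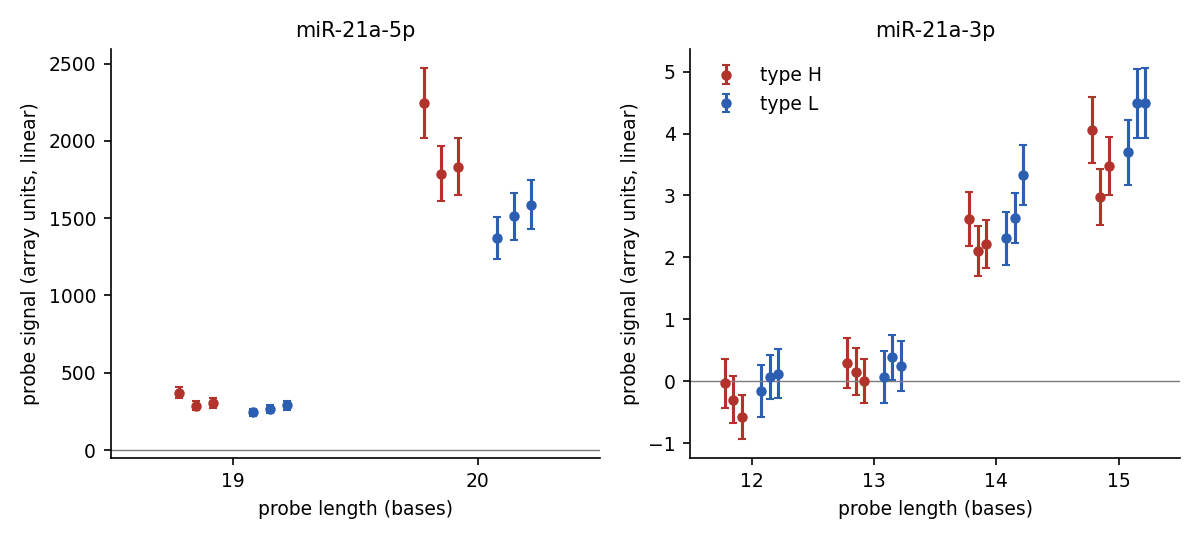
Signal of each probe of miR-21a-5p (left, 19 and 20 bases) and miR-21a-3p (right, 12 to 15 bases) on linear axes in array units, with the 3 arrays of type H in red and of type L in blue. Bars are the error the scanner software gives for the probe; the 20-base probe reads 1372 to 2245 and the 15-base probe 2.98 to 4.49, while the 12-base and 13-base probes lie around 0.

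MiR-21a has close relatives in the mouse, and the array holds both. Their RefSeq sequences are shown with the bases that differ from miR-21a-5p, counted from the 5′ end, in capitals.
miR-21b: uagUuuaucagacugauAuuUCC
miR-21c: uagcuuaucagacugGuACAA
MiR-21c keeps the seed of miR-21a-5p and miR-21b does not. Neither was detected on any of the 6 arrays, with summed signals of 0.22 to 1.49 for miR-21b and -0.77 to 0.11 for miR-21c, on arrays where miR-21a-5p read 1616 or more. MiR-590-5p, whose longest probe matches the same seed, was not detected either. MiR-21a-5p was thus the only detected miRNA for which that seed was found, and no other miRNA with the seed of miR-21a-3p was found on the array. The seed was read from RefSeq for the 1608 of 1881 names matched there, and from the longest probe for the rest. A probe that stops short of the 5′ end of its miRNA does not show the seed this way, so the search was incomplete.

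The patterns most like each arm were sought among the 230 other miRNAs detected on all 6 arrays, by the root mean square distance of log2 values centred on their mean over the 6 arrays. After quantile normalization miR-3963 and miR-6366 were at a distance of 0 from miR-21a-5p, since their ranks are also fixed, and miR-3968 followed at 0.02. Without normalization miR-199a-5p, a miRNA of fibroblasts, was the nearest at 0.031, followed by miR-106b-5p at 0.032 and miR-25-3p at 0.041, which come from one cluster. Their log2 differences were 0.35, 0.41 and 0.37. For miR-21a-3p the nearest after quantile normalization were miR-101a-3p at 0.09, let-7e-5p at 0.11 and miR-26b-5p at 0.13.

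Other miRNAs tied to the same biology were taken as lists, given here after quantile normalization. Of 13 hypoxia-linked miRNAs 12 were tested, with 8 higher, 3 lower and 1 not past the threshold, where 44.7% of all miRNAs tested were called higher and 42.1% lower. Their median was 0.33 against 0.03 over all 311 miRNAs tested. The 3 lower include miR-181a-5p, detected on 1 type H and 3 type L arrays, which passed the detection filter through type L alone. The largest differences among members detected on all 6 arrays were those of miR-27a-3p at 0.78 (limma adjusted p = 2.0e-05) and miR-210-3p at -0.59 (limma adjusted p = 2.2e-05), the latter being the miRNA most regularly induced by hypoxia. MiR-23a-3p and miR-103-3p were both at 0.52. The split depended on the scaling, as 5 were higher and 6 lower after 75th percentile scaling, beside 31.5% and 56.6% of all miRNAs, with a median of -0.08 against -0.27 over all miRNAs.

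Of 12 fibrosis-linked miRNAs 9 were tested, 7 were higher and 2 were not past the threshold, beside the same 44.7% higher and 42.1% lower of all miRNAs, with a median of 0.35 against 0.03. By limma 0 were lower, at an unadjusted p under 0.05 as well, since the 2 others, miR-29c-3p at 0.02 and miR-199a-3p at 0.03, also lay above 0. The 7 higher include miR-145a-5p, detected on 3 type H and 2 type L arrays, which passed the detection filter through type H alone. MiR-143-3p, a miRNA of smooth muscle and stromal cells, was at 1.10 (limma adjusted p = 4.6e-06), miR-214-3p at 0.64 (adjusted p = 2.2e-05), miR-29b-3p, which represses collagens, at 0.54 (adjusted p = 0.0077) and miR-30a-5p at 0.35 (adjusted p = 8.9e-05). After 75th percentile scaling 7 were higher and 1 lower, beside 31.5% and 56.6% of all miRNAs, with a median of 0.36 against -0.27. The tested members miR-199a-3p, miR-199a-5p, miR-214-3p, miR-143-3p and miR-145a-5p are also on the stromal marker list above. The summed signal of that list was higher on the type H arrays, so the 2 lists are not separate results.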

How the data were processed

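RNA of 6 samples was hybridised to one array each. With Agilent Feature Extraction 10.7.1.1 the authors made an intensity for each spot, a total for each probe and a total for each miRNA, deposited as linear values that no step had scaled between arrays. A log2 table was deposited too, per the methods quantile-normalized, with column medians of -3.32 to -3.26, the level of undetected miRNAs, whose offset is unknown. The file headers name another array design number than the methods, and labels and methods describe different labelling.

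Here the totals of a miRNA's distinct probes were summed, quantile-normalized over 1881 miRNAs, set to at least 1 and taken to log2. The 311 miRNAs found on every array of one or both cell types were compared with limma 3.58.1 in R 4.3.3, p-values being adjusted by Benjamini and Hochberg and called under 0.05. Single ratios were tested by exact permutation. The script was tested on simulated data. Alternatives covered scaling, background, signal, filter, floor, test, array weights, the replicate block and each array left out, and those that pair another scaling with a second change, median centring and the fit across hairpins were added after seeing the data. The miR-21a arms and all lists were chosen with earlier results of these data known. Named were both arms, their relatives by name or seed, the 3 nearest patterns of each arm and up to 4 members per list with the largest difference among those detected on all 6 arrays; members and patterns named beyond these were chosen after their values were seen. Of the array's names, 1608 matched a RefSeq mature sequence. The number of arrays limits the precision. One further list is not reported here.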

Additional observations from a re-analysis of the deposited data

How the results depend on the processing

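After quantile normalization miR-21a-5p stayed at 0 with the totals as deposited, the mean processed signal, only probes above 3 times their error, the log2 values the authors deposited, array weights, the floor, both filters, the replicate block and each array left out, and normexp on the spots gave -0.047. The methods' t-test gives no p for it, as its variance is 0. With each array left out in turn, the log2 difference of miR-21a-5p was 0 after quantile normalization, 0.26 to 0.43 without normalization (not past the threshold without type L replicate 1) and 0.22 to 0.30 after 75th percentile scaling. That of miR-21a-3p was -0.07 to 0.16, -0.51 to -0.26 and -0.52 to -0.37 in the same order, and without normalization it was not past the threshold when type H replicate 2, type L replicate 2 or type L replicate 3 was left out. The arm difference was -0.16 to 0.07 after quantile normalization and 0.68 to 0.80 without it. The cause of these shifts was not tested beyond the fixed rank of miR-21a-5p. For the 19-base probe the range was 0.17 to 0.30, past the threshold without type L replicate 3, and for the 15-base probe -0.0090 to 0.16.

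Without normalization the values were 0.37 for miR-21a-5p, -0.35 for miR-21a-3p and 0.72 for the arm difference, and 0.39, -0.24 and -0.27 for the 20-base, 14-base and 15-base probes. After 75th percentile scaling they were 0.27, -0.46 and 0.72, and 0.29, -0.35 and -0.38. Median centring gave 0.61, -0.11 and 0.72. The arm difference is a ratio within an array, so a scale factor per array cannot change it. Limma across hairpins gave 0.72 for the arm difference after 75th percentile scaling. With only probes above 3 times their error the arms were at 0.37 and -0.26 without normalization, with an arm difference of 0.63, and at 0.27 and -0.36 after 75th percentile scaling. Normexp gave -0.018 for miR-21a-3p. The totals as deposited gave 3.63 for it after quantile normalization and, without normalization, 3.48, with 0.37 for miR-21a-5p, because they hold other miRNAs' signal. Without the filter, 413 of 1881 miRNAs were past the threshold and 220 of them higher in type H ECs, against 270 and 139, where more miRNAs were tested. The methods' t-test put 266 of the 311 past an unadjusted p of 0.05 and 264 after Benjamini-Hochberg adjustment. The number of members past the threshold, both directions together, changed by less than 1.5 times for each list, while the split of the hypoxia-linked list moved from 8 higher and 3 lower to 5 and 6 after 75th percentile scaling and to 5 and 3 without normalization.

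The replicate numbers share only a number. Deviations of arrays with the same number correlated at 0.02, -0.12 and 0.15, and 2 of the 6 arrays correlated best with their own number. Blocking on the replicate number left 262 calls against 270, and the 19-base probe, at 0.21, passed it (limma adjusted p = 0.039 against 0.051). The arms stayed at 0 and 0.07 after quantile normalization, and with the block were at 0.37 and -0.35 without normalization and at 0.27 and -0.46 after 75th percentile scaling. Low signal limits miR-21a-3p, whose brightest probe was 6.6 to 8.1 times its error.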
